A study of Mus musculus with 9 samples.

Results

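The Eph-ephrin, Slit-Robo and netrin guidance genes are the cell-surface receptors and ligands that steer growing axons and migrating neurons. They were selected by gene name, as the Eph receptors, ephrins, Slits, Robos, netrins, netrin-Gs and Unc5 receptors together with Dcc, Neo1 and Draxin. The choice was made with earlier results of these data known. The rule found 41 genes, all present in both deposited tables, of 22496 genes in the table that holds the ShhN IUE libraries and 23624 in the table that holds the SmoM2 libraries (22268 genes stood in both). RNA of dissected cortex at postnatal day 0 was sequenced in bulk in 9 libraries, 3 per group. The first group, ShhN IUE, was labelled only by that name, read here as the N-terminal part of sonic hedgehog given by in utero electroporation. The second, SmoM2, carried hGFAP-Cre with 1 floxed SmoM2 allele (SmoM2f/+), an activated form of the hedgehog signal transducer Smoothened. The third was wild-type littermates, and all groups shared a mixed strain background of C57BL/6J, 129S6 and CD1.

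In SmoM2 mice the transgene depends on Cre driven by the human GFAP promoter. In ShhN IUE mice, if the name is read correctly, an electroporated plasmid would itself reach only part of the cortex. How far the effect of either reached within the cortex was not measured. No label describes a mouse electroporated without ShhN, or a mouse with Cre alone, so an effect of electroporation or of Cre cannot be told apart from that of hedgehog signalling. The labels do not say whether the libraries of a group came from separate animals, so p-values measure only the spread between these samples. Library totals over genes ran from 15376071 to 19604672 counts in ShhN IUE and from 23625702 to 26923127 in SmoM2, against 18610507 to 21694348 in wild type as counted in the ShhN IUE table. All 16 deep-layer and 14 upper-layer cortical neuron markers passed the filter on low counts, with summed wild-type levels of 1674 to 2127 CPM (counts scaled to a library of 1e+06) for the deep-layer list. All 20 genes of a striatal neuron list passed it too, at 814.8 to 1055 CPM summed in wild type. Of 8 genes of the hedgehog pathway, 5 rose in each intervention, and 1 fell in SmoM2.

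Eph receptors are receptor tyrosine kinases that are bound by ephrins on a neighbouring cell, and signals pass into both cells, often ending contact between them. Ephrin-A ligands are held by a lipid anchor and mainly bind EphA receptors, whereas ephrin-B ligands span the membrane and mainly bind EphB receptors. Slits are secreted proteins that repel axons bearing Robo receptors. Netrins attract axons through Dcc and neogenin and repel them through Unc5 receptors, and in the cortex these systems are known for sorting thalamic, callosal and corticofugal axons and for placing migrating neurons.

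In ShhN IUE cortex, 5 guidance genes rose and 7 fell against wild type among the 39 that could be tested, and 27 did not pass (edgeR quasi-likelihood test, adjusted p under 0.05 over all genes tested). That is 30.8% of the tested members, beside 33.3% of all 16180 genes tested, so the share of guidance genes called was close to the background. Higher calls made up 16.1% and lower calls 17.2% of all genes. In SmoM2 cortex, 2 guidance genes rose and 12 fell against wild type among 39, and 25 did not pass. That is 35.9% of members, beside 18.9% of all 16485 genes tested (9.59% higher and 9.29% lower). The members were thus called at a larger share than all genes, mostly as lower, a difference in shares that was not tested. The median log2 fold change of the tested members was -0.10 in ShhN IUE and -0.10 in SmoM2, where the median over all genes tested was -0.0038 for ShhN IUE and -0.0072 for SmoM2. Epha1 and Ntn5 had too few counts to be tested against wild type. In bulk tissue, fewer cells of a type and less RNA per cell cannot be told apart in any of these values.

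Both interventions were compared with the same 3 wild-type libraries, so their fold changes share that part of their error. Set side by side, Draxin and Efna4 passed as higher in both comparisons. Epha4, Epha5, Epha7, Epha8, Ephb1 and Efna5 passed as lower in both. Efnb1, Ntng2 and Unc5b passed as higher and Ntng1 as lower in ShhN IUE but not in SmoM2, and Epha3, Epha10, Robo1, Slit2, Slit3 and Unc5d passed as lower in SmoM2 but not in ShhN IUE. The other 21 tested members passed in neither. Passing in one comparison and missing in the other does not show a difference between the interventions, which was tested separately for the genes whose wild-type counts agreed between the tables.

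**Figure D1:**
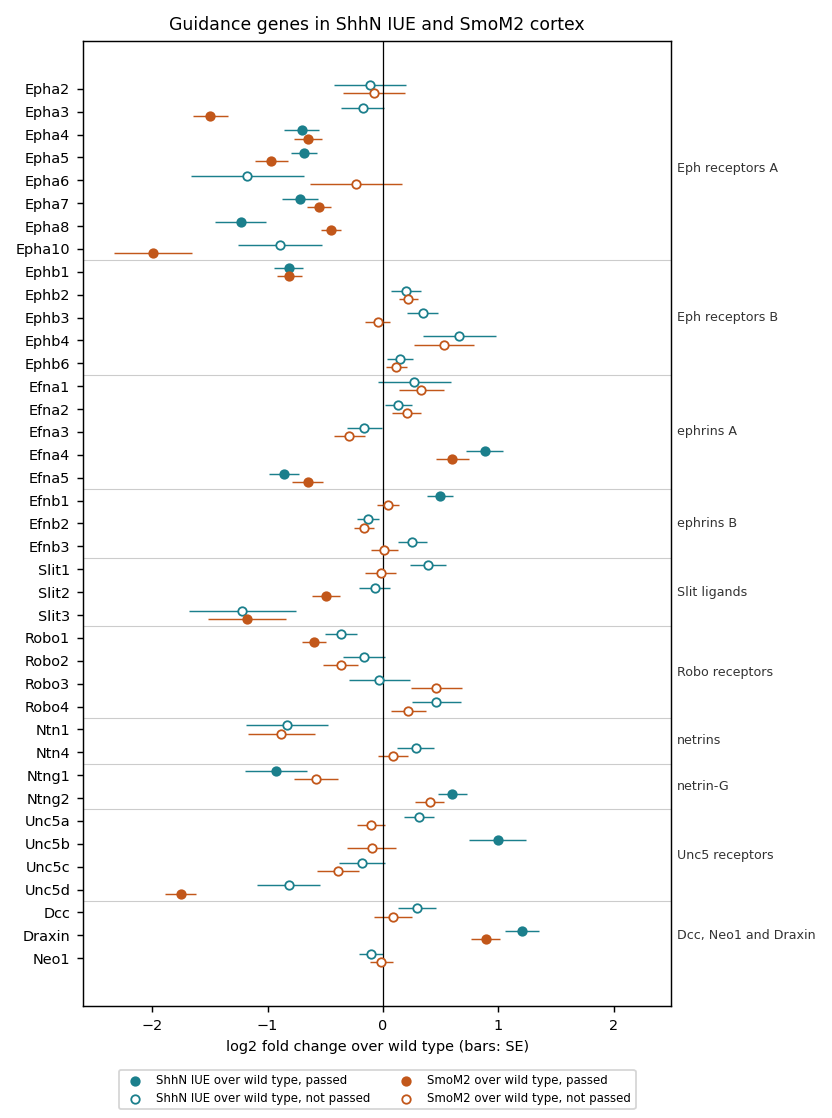
Log2 fold change over wild type (x axis, CPM scale) of the 39 tested guidance genes in ShhN IUE (teal) and SmoM2 (orange), grouped by family, where bars are standard errors and filled points passed at an adjusted p under 0.05. The EphA receptors lie mostly left of 0, Draxin and Efna4 lie right of it in both comparisons, and Epha3 and Unc5d lie far left in SmoM2.

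Levels of different genes were compared only per transcript length, in the deposited FPKM (fragments scaled by gene length and library size). In wild-type cortex the members ran from 72.5 ± 6.91 FPKM for Neo1, a netrin and RGM receptor, to 0.0234 ± 0.00415 FPKM for Epha1, an Eph receptor best known from epithelia (mean ± SD, n = 3 wild-type libraries of the ShhN IUE table). After Neo1 by mean came the ephrin-B ligands Efnb2 at 63.8 ± 4.01 FPKM and Efnb3 at 61.04 ± 8.30 FPKM. The ranges of Neo1, Efnb2 and Efnb3 overlapped one another. Robo1, a Slit receptor of migrating and axon-bearing neurons, followed at 35.4 ± 5.06 FPKM, and Draxin, a secreted repellent that binds Dcc, at 29.7 ± 5.10 FPKM. The ranges of Robo1 and Draxin also overlapped. Epha3, Ephb6, Efna3, Robo2 and Efnb1 lay between 19.1 ± 0.233 FPKM and 23.5 ± 4.12 FPKM (lowest and highest mean). Every Epha3 library lay above every Efnb1 library, and the order of the others within that range was not tested. The median member stood at 7.50 FPKM, and the 3 lowest were Epha2 at 0.328 ± 0.0730 FPKM, Ntn5 at 0.133 ± 0.132 FPKM and Epha1. Dcc, the netrin receptor, was at 3.26 ± 0.729 FPKM, well under its relative Neo1.

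**Figure D2:**
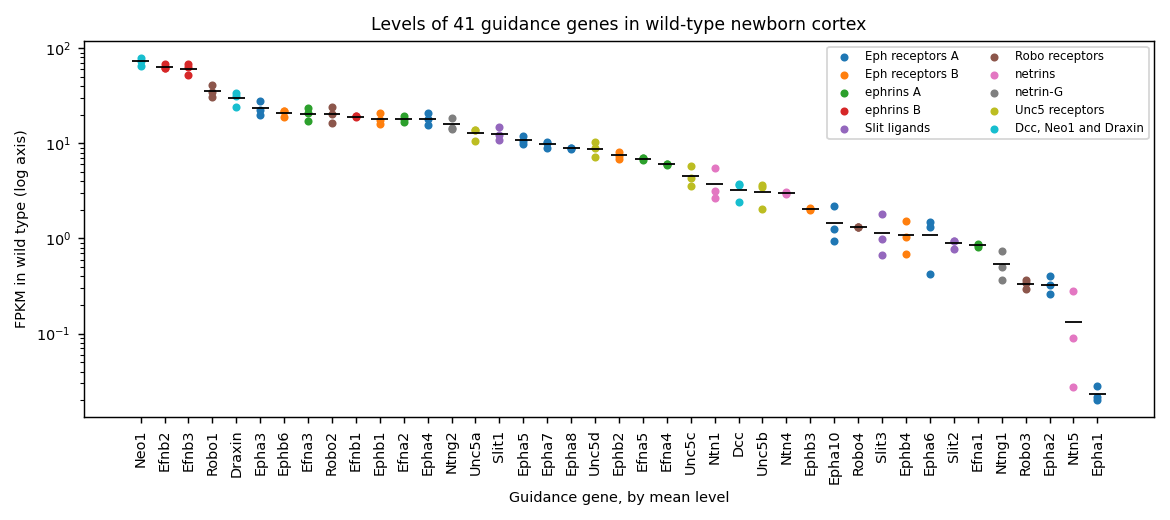
FPKM (y axis, log scale) of each of the 41 guidance genes in the 3 wild-type libraries of the ShhN IUE table, coloured by family and ordered by mean, where points are libraries and lines are means. Neo1 at 72.5 FPKM and the ephrin-B genes lead, and Ntn5 and Epha1 lie lowest.

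Of the 5 ephrin-A ligands, Efna4 rose and Efna5 fell in both interventions. Efna4, a ligand of EphA receptors, lies at chromosome 3, 89333390 to 89338028, minus strand (GRCm38, GENCODE M21, as for all gene coordinates). Listed in the order of the replicate numbers, it had 15.5, 19.6 and 19.1 CPM in the ShhN IUE libraries, against 10.01, 9.41 and 9.998 CPM in the wild-type libraries, and a log2 fold change of 0.88 ± 0.16 (SE; edgeR adjusted p = 0.00529). Efna4 in the SmoM2 comparison had 16.6, 13.4 and 14.2 CPM in the SmoM2 libraries, against 9.97, 9.37 and 9.90 CPM in the wild-type libraries, and a log2 fold change of 0.60 ± 0.14 (edgeR adjusted p = 0.0229). All libraries of both interventions lay above all wild-type libraries, and the wild-type values were close to one another. The SmoM2 call was lost without SmoM2 replicate 1 or 3 or wild-type replicate 2, with edgeR adjusted p-values up to 0.0883. In the annotation 10.5% of the Efna4 exon bases overlap an antisense gene, 4731419I09Rik, and no source used here gives the strand setting of the counting, so reads of the pair may be mixed.

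Efna5, a ligand known for repelling axons in topographic maps and in thalamocortical sorting, lies at chromosome 17, 62604184 to 62881317, minus strand. It had 16.01, 18.7 and 15.5 CPM in the ShhN IUE libraries, against 31.7, 29.8 and 29.4 CPM in the wild-type libraries, and a log2 fold change of -0.86 ± 0.13 (edgeR adjusted p = 0.00249). Efna5 in the SmoM2 comparison had 12.6, 15.2 and 16.6 CPM in the SmoM2 libraries, against 24.4, 22.7 and 22.8 CPM in the wild-type libraries, and a log2 fold change of -0.65 ± 0.13 (edgeR adjusted p = 0.0130). Groups did not overlap in either table. The same wild-type libraries were counted differently for this gene, with 1802 wild-type counts in the ShhN IUE table and 1388 in the SmoM2 table, so each fold change belongs to its own table. Efna1, Efna2 and Efna3 passed in neither comparison, with log2 fold changes between -0.16 and 0.27 in ShhN IUE and between -0.29 and 0.33 in SmoM2.

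Of the 3 ephrin-B ligands, Efnb1 rose in ShhN IUE alone among these comparisons. Efnb1, an ephrin-B of cortical progenitors, had 86.4, 98.6 and 108 CPM in the ShhN IUE libraries, against 71.5, 67.5 and 68.6 CPM in the wild-type libraries, without overlap, and a log2 fold change of 0.50 ± 0.11 (edgeR adjusted p = 0.0123). Efnb1 in the SmoM2 comparison had 73.7, 63.8 and 74.2 CPM in the SmoM2 libraries, against 70.7, 66.97 and 67.5 CPM in the wild-type libraries, with overlap, and a log2 fold change of 0.05 ± 0.10 (edgeR adjusted p = 0.779). For Efnb1, the difference between SmoM2 and ShhN IUE passed at -0.48 ± 0.10 (edgeR adjusted p = 0.0112), and was lost without SmoM2 replicate 2 at 0.0576. The abundant Efnb2 and Efnb3 passed in neither, with log2 fold changes of -0.13 ± 0.10 and 0.25 ± 0.12 in ShhN IUE and -0.16 ± 0.08 and 0.01 ± 0.11 in SmoM2.

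The EphA receptors were the group with the most lower calls. Of 9 EphA genes, 8 could be tested, and 4 fell in ShhN IUE and 6 fell in SmoM2, with none higher. That is 50% lower in ShhN IUE, beside 17.2% of all genes tested, and 75% lower in SmoM2, beside 9.29%. The difference in shares was not tested. The median log2 fold change of the 8 tested EphA genes was -0.71 in ShhN IUE and -0.60 in SmoM2. Summed over the 9 genes, EphA receptors amounted to 55.3, 56.1 and 42.4 in the ShhN IUE libraries, against 77.3, 72.04 and 71.8 in the wild-type libraries, in FPKM. In the SmoM2 table the same sum was 40.05, 45.6 and 40.7 in the SmoM2 libraries, against 78.3, 73.9 and 73.6 in the wild-type libraries. Neither set of sums overlapped with wild type, and the sums are a description with no test.

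Markers of deep-layer cortical and of striatal neurons were also mostly lower, and upper-layer markers were mixed. Deep-layer neuron markers fell in 10 of 16 cases in ShhN IUE with none higher, with summed levels of 1036 to 1231 CPM in ShhN IUE and 1674 to 2127 CPM in wild type. In SmoM2, 9 of 16 fell and 1 rose, with 1050 to 1148 CPM in SmoM2 and 1653 to 2015 CPM in wild type. Striatal markers fell in 14 of 20 cases in ShhN IUE, with 1 higher and sums of 753 to 834 CPM in ShhN IUE and 815 to 1055 CPM in wild type. In SmoM2, 16 of the 20 fell and 1 rose, with 825 to 878 CPM in SmoM2 and 995 to 1268 CPM in wild type. Upper-layer markers gave 5 lower and 2 higher of 14 in ShhN IUE, and 6 lower and 3 higher in SmoM2. Their sums were 2339 to 3087 CPM in ShhN IUE and 2659 to 3344 CPM in wild type, with overlap. In the other table they were 2775 to 2946 CPM in SmoM2 and 2990 to 3675 CPM in wild type, without overlap. The striatal sums of ShhN IUE and wild type overlapped, and the deep-layer sums did not in either table. Per gene the striatal list fell furthest of these lists, with a median log2 fold change of -1.7 in ShhN IUE and -1.66 in SmoM2. The medians were -0.714 and -0.832 for the deep-layer list, and -0.199 and -0.216 for the upper-layer list. The part of these neurons in the EphA values was not tested.

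Epha3 encodes a receptor for ephrin-A ligands and lies at chromosome 16, 63543538 to 63864158, minus strand. It stood at 44, 54.6 and 44.8 CPM in the SmoM2 libraries, against 164, 126 and 114 CPM in the wild-type libraries. Every SmoM2 library lay far under every wild-type library, with a log2 fold change of -1.50 ± 0.15 (SE) and an edgeR adjusted p of 0.000766. In the other table Epha3 stood at 139, 129.5 and 90.6 CPM in the ShhN IUE libraries, against 165, 125 and 115 CPM in the wild-type libraries. Those groups overlapped, and Epha3 did not pass in ShhN IUE, with a log2 fold change of -0.18 ± 0.19 and an edgeR adjusted p of 0.502. For Epha3, the difference between SmoM2 and ShhN IUE itself was -1.34 ± 0.18 on the log2 scale, with an edgeR adjusted p of 0.00157. It held in each alternative fit that was run.

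Epha4 encodes a receptor that binds both ephrin classes and limits the growth of corticospinal axons across the midline (chromosome 1, 77367185 to 77515088, minus strand). It had 134, 165 and 121 CPM in the ShhN IUE libraries, against 233, 189.7 and 263 CPM in the wild-type libraries, without overlap, and a log2 fold change of -0.71 ± 0.15 (edgeR adjusted p = 0.0109). In the SmoM2 comparison it had 147, 171 and 165 CPM in the SmoM2 libraries, against 259, 213 and 286 CPM in the wild-type libraries, again without overlap, and fell by 0.65 ± 0.12 on the log2 scale (edgeR adjusted p = 0.00830). Epha4 was thus lower in both interventions by a similar log2 amount, but its wild-type counts differed between the tables, so no test between the interventions was made.

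Epha5 encodes an ephrin-A receptor with a part in topographic mapping (chromosome 5, 84054761 to 84417382, minus strand). It had 158, 158 and 128 CPM in the ShhN IUE libraries, against 223, 257 and 232 CPM in the wild-type libraries, and a log2 fold change of -0.68 ± 0.11 (edgeR adjusted p = 0.00373). Epha5 in the SmoM2 comparison had 95.8, 116 and 90.5 CPM in the SmoM2 libraries, against 160.5, 226 and 203 CPM in the wild-type libraries, and a log2 fold change of -0.97 ± 0.15 (edgeR adjusted p = 0.00366). All 3 libraries of each intervention lay under all 3 of wild type.

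Epha7, which encodes another ephrin-A receptor with regional expression in the cortex, lies at chromosome 4, 28813131 to 28967499, plus strand. It had 82.2, 80.2 and 56.4 CPM in the ShhN IUE libraries, against 112, 122 and 127 CPM in the wild-type libraries, and a log2 fold change of -0.72 ± 0.15 (edgeR adjusted p = 0.0100). Epha7 in the SmoM2 comparison had 88.3, 105 and 85.3 CPM in the SmoM2 libraries, against 130.3, 138 and 141 CPM in the wild-type libraries, and a log2 fold change of -0.56 ± 0.10 (edgeR adjusted p = 0.00802). Neither comparison overlapped. Without SmoM2 replicate 3 the SmoM2 call was lost, at an edgeR adjusted p of 0.0519.

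Epha8, an ephrin-A receptor known for axons of the superior colliculus, lies at chromosome 4, 136929419 to 136956816, minus strand. It had 19.1, 23.2 and 11.7 CPM in the ShhN IUE libraries, against 43.9, 41.1 and 42.1 CPM in the wild-type libraries, and a log2 fold change of -1.23 ± 0.22 (edgeR adjusted p = 0.00541). Epha8 in the SmoM2 comparison had 30.8, 31.4 and 30.4 CPM in the SmoM2 libraries, against 43.7, 41.1 and 41.9 CPM in the wild-type libraries, a smaller fall of 0.45 ± 0.09 on the log2 scale (edgeR adjusted p = 0.00941). The SmoM2 call was lost without SmoM2 replicate 3, at 0.0636. Between the interventions Epha8 was the 1 member that was higher in SmoM2 than in ShhN IUE, by 0.76 ± 0.19 on the log2 scale (edgeR adjusted p = 0.0237). That call was lost without ShhN IUE replicate 1 or any 1 SmoM2 library, with edgeR adjusted p-values up to 0.0754.

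Epha10, a receptor that lacks kinase activity, was a low-count gene (chromosome 4, 124880899 to 124917800, plus strand). It had 2.24, 3.56 and 2.91 CPM in the SmoM2 libraries, against 17.6, 9.51 and 7.55 CPM in the wild-type libraries, and a log2 fold change of -1.99 ± 0.34 (edgeR adjusted p = 0.00605). Wild-type replicate 1 stood above the other wild-type libraries, and no SmoM2 library reached the lowest of them. In the ShhN IUE table it had 8.08, 4.21 and 6.76 CPM in the ShhN IUE libraries, against 18.1, 9.77 and 7.69 CPM in the wild-type libraries, with overlap, and did not pass (log2 fold change -0.90 ± 0.36, edgeR adjusted p = 0.0920). For Epha10, the difference between SmoM2 and ShhN IUE passed narrowly at -1.15 ± 0.35 on the log2 scale (edgeR adjusted p = 0.0471). It was lost without any 1 SmoM2 library, without ShhN IUE replicate 1 or 3, without wild-type replicate 2 and under 3 other settings, with edgeR adjusted p-values up to 0.168.

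The remaining tested EphA genes passed in neither comparison. Epha6 had log2 fold changes of -1.18 ± 0.49 in ShhN IUE and -0.24 ± 0.40 in SmoM2, with wide errors at a wild-type level of 7.48 CPM. Epha2 had -0.11 ± 0.31 in ShhN IUE and -0.08 ± 0.27 in SmoM2.

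Promoters of 4 of the 6 EphA genes that fell in SmoM2, without Epha7 and Epha10, and of Draxin, the strongest riser, are given. These promoters show what sequence lies next to some of the genes that moved. They are the 250 bases before the annotated start, 5′ to 3′ on the gene's strand, credited to RefSeq on GRCm38.p6, with every GC box (GGGCGG, or CCGCCC on the other strand) in capitals:
Epha3, chr16:63864176-63864425, minus strand: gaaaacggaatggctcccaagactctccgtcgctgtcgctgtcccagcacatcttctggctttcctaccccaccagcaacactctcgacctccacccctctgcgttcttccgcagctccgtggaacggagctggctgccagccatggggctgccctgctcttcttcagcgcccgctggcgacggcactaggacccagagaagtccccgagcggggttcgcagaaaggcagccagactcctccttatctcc
Epha4, chr1:77515089-77515338, minus strand: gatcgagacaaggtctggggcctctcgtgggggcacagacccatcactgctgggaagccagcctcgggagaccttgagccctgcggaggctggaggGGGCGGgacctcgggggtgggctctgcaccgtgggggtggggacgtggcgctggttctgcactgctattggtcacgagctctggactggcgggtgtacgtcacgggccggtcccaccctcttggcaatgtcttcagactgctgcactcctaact
Epha5, chr5:84417383-84417632, minus strand: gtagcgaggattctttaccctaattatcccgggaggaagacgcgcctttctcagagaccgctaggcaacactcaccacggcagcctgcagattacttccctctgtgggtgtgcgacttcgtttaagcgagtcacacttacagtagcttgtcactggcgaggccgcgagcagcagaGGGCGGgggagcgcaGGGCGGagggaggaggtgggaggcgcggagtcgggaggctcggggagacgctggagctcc
Epha8, chr4:136956817-136957066, minus strand: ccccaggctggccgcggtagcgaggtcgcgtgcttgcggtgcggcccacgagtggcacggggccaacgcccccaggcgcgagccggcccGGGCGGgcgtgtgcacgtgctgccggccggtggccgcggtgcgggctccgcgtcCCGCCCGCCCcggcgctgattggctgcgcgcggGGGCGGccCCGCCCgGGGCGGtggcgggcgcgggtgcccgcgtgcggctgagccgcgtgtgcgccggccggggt
Draxin, chr4:148130699-148130948, minus strand: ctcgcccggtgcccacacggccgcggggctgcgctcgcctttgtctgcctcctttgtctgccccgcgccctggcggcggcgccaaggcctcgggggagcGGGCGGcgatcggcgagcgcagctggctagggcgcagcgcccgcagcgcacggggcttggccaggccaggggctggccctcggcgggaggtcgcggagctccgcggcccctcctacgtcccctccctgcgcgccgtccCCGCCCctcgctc

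The motifs searched on both strands in such windows were GACCACCCA (the GLI motif), GGGCGG (the GC box), CCAAT (the CCAAT box) and TATAAA (the TATA box). None of these motifs holds another. With chromosome 18 left out, where Dcc lies, 41 windows for 36 of the guidance genes were searched. No guidance window held the GLI letters, which 0.225% of all 32817 promoter windows held. The GC box was in 28 of the 41 guidance windows (25 of 36 genes), against 32.7% of all windows. CCAAT was in 15 windows (14 genes) against 33.8%, and TATAAA in 2 windows (2 genes) against 12.4%. The median GC content was 64.8% in the guidance windows and 52.4% in all promoter windows. Among the windows printed, Epha3 held no GC box and Epha8 held 6, so the motif was not in every printed window of a gene that fell. Of the EphA genes that fell but are not printed, Epha7 held 1 GC box in each window and Epha10 held 2. A match is a description of letters, and a missing match says only that the letters are not in this window.

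Among EphB receptors, Ephb1 fell in both interventions and the other 4 passed in neither. Ephb1 encodes an ephrin-B receptor known for turning retinal axons at the optic chiasm (chromosome 9, 101922128 to 102354693, minus strand). It had 88.05, 82.7 and 76.5 CPM in the ShhN IUE libraries, against 145, 124 and 166 CPM in the wild-type libraries, and a log2 fold change of -0.82 ± 0.13 (edgeR adjusted p = 0.00295). Ephb1 in the SmoM2 comparison had 83.7, 77.2 and 80.4 CPM in the SmoM2 libraries, against 143, 123 and 158 CPM in the wild-type libraries, and a log2 fold change of -0.81 ± 0.11 (edgeR adjusted p = 0.00220). No library of either intervention reached the lowest wild-type library. For Ephb1, the difference between SmoM2 and ShhN IUE was -0.05 ± 0.11 and did not pass (edgeR adjusted p = 0.798). Ephb2, Ephb3, Ephb4 and the kinase-inactive Ephb6 had log2 fold changes of 0.20, 0.34, 0.66 and 0.15 in ShhN IUE, and of 0.22, -0.05, 0.53 and 0.12 in SmoM2, none past the threshold. Summed EphB levels were 49.8, 47.96 and 45.3 in the ShhN IUE libraries, against 49.2, 49.7 and 49.95 in the wild-type libraries, in FPKM. In the SmoM2 table they were 46.5, 44.6 and 45.8 in the SmoM2 libraries, against 49.2, 48.4 and 49.4 in the wild-type libraries, with every SmoM2 library under every wild-type library.

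**Figure D3:**
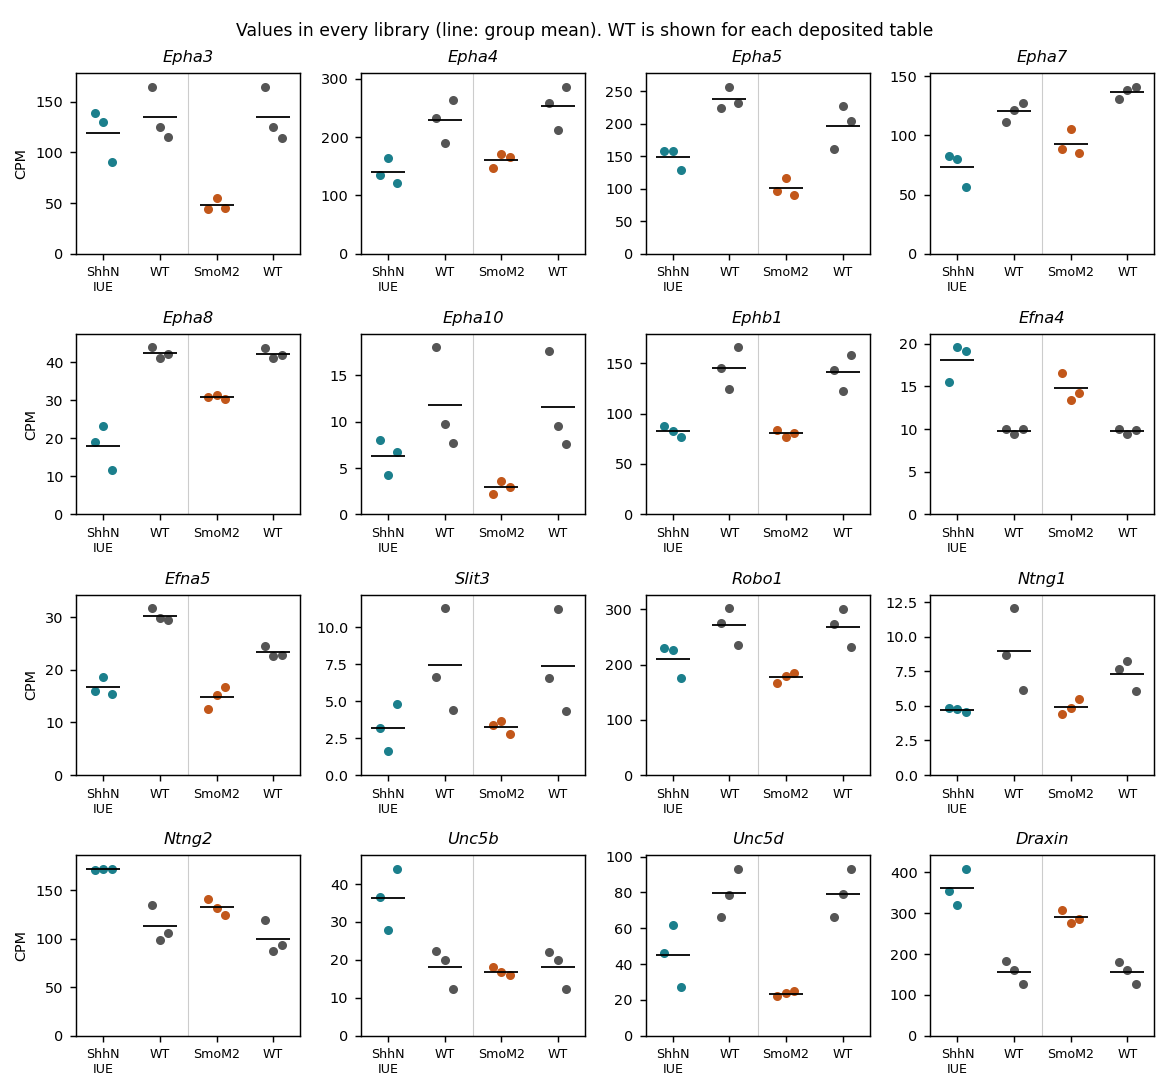
CPM (y axis, from 0) of the 16 named guidance genes in every library, with ShhN IUE (teal) left of the wild type of its table and SmoM2 (orange) left of the wild type of its own, where points are libraries and lines are means. Epha3 and Unc5d drop in SmoM2, Unc5b is high in ShhN IUE, and Draxin and Efna4 are high in both.

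In ShhN IUE none of the 3 Slits and 4 Robos passed. In SmoM2, Slit2, Slit3 and Robo1 fell. Slit2, a secreted midline repellent, had 20.7, 23.98 and 20.5 CPM in the SmoM2 libraries, against 27.3, 31.4 and 33.1 CPM in the wild-type libraries, and a log2 fold change of -0.49 ± 0.12 (edgeR adjusted p = 0.0240). The groups did not overlap, but the call was lost without SmoM2 replicate 1 or 3 or wild-type replicate 2 or 3, with edgeR adjusted p-values up to 0.114. In ShhN IUE its log2 fold change was -0.07 ± 0.14. For Slit2, the difference between SmoM2 and ShhN IUE was -0.51 ± 0.13 (edgeR adjusted p = 0.0223) and was likewise lost without ShhN IUE replicate 1 or 2 or SmoM2 replicate 1 or 3.

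Slit3, a secreted Slit called here at a few CPM only, lies at chromosome 11, 35121224 to 35708507, plus strand. It had 3.38, 3.64 and 2.76 CPM in the SmoM2 libraries, against 6.56, 11.2 and 4.32 CPM in the wild-type libraries, and a log2 fold change of -1.18 ± 0.34 (edgeR adjusted p = 0.0431). Wild-type replicate 2 was the highest of the wild-type libraries, and without it the log2 fold change was -0.74 and the call was lost. It was also lost without wild-type replicate 1, without any 1 SmoM2 library, with no filter on low counts and by limma-voom, with edgeR or limma adjusted p-values up to 0.151. In ShhN IUE it had 3.20, 1.60 and 4.82 CPM in the ShhN IUE libraries, against 6.64, 11.3 and 4.39 CPM in the wild-type libraries, with overlap (log2 fold change -1.22 ± 0.46, edgeR adjusted p = 0.0740). That fold change was of the size seen in SmoM2, and Slit3 passed in ShhN IUE by DESeq2 at 0.0242 and without ShhN IUE replicate 3 at 0.0421. Slit1, the Slit with the highest FPKM, had log2 fold changes of 0.39 ± 0.15 in ShhN IUE and -0.02 ± 0.13 in SmoM2 and passed in neither.

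Robo1, the Robo with the highest FPKM in wild type, lies at chromosome 16, 72663149 to 73046095, plus strand. It had 167, 179 and 186 CPM in the SmoM2 libraries, against 273, 301 and 231 CPM in the wild-type libraries, without overlap, and a log2 fold change of -0.60 ± 0.11 (edgeR adjusted p = 0.00738). In ShhN IUE it had 231, 226 and 176 CPM in the ShhN IUE libraries, against 276, 303 and 236 CPM in the wild-type libraries, a narrow gap between the groups, and it did not pass (log2 fold change -0.36 ± 0.14, edgeR adjusted p = 0.0736). With the replicate block Robo1 passed in ShhN IUE, at an edgeR adjusted p of 0.0458. For Robo1, the difference between SmoM2 and ShhN IUE was -0.26 ± 0.12 (edgeR adjusted p = 0.171), so the interventions were not shown to differ. Robo2 had log2 fold changes of -0.17 ± 0.18 in ShhN IUE and -0.36 ± 0.15 in SmoM2 and passed in neither, as did Robo3, a Robo of hindbrain commissural neurons, and Robo4, the endothelial Robo.

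Neither secreted netrin that could be tested passed by the edgeR test without a block. Ntn1, the classical netrin, had 13.01, 10.2 and 22.3 CPM in the ShhN IUE libraries, against 22.9, 18.3 and 39.6 CPM in the wild-type libraries, and a log2 fold change of -0.83 ± 0.36 (edgeR adjusted p = 0.107). Ntn1 in the SmoM2 comparison had 16.7, 16.1 and 12.96 CPM in the SmoM2 libraries, against 22.8, 18.6 and 42.9 CPM in the wild-type libraries, and a log2 fold change of -0.88 ± 0.29 (edgeR adjusted p = 0.0674). Its mean lay lower in both interventions, with a wide spread in wild type. Ntn1 did pass in ShhN IUE by DESeq2 at 0.0391, with the replicate block at 0.0128 and without ShhN IUE replicate 3 at 0.0333. In SmoM2 it passed by DESeq2 at 0.00875 and without wild-type replicate 2 at 0.0282. Ntn4, a netrin of basement membranes, had log2 fold changes of 0.28 ± 0.16 in ShhN IUE and 0.09 ± 0.13 in SmoM2.

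The netrin-Gs are membrane-anchored relatives of netrins that bind partner proteins at synapses and not Dcc. Ntng2 lies at chromosome 2, 29194541 to 29253005, minus strand. It had 171, 172 and 172 CPM in the ShhN IUE libraries, against 135, 98.8 and 106 CPM in the wild-type libraries, and a log2 fold change of 0.60 ± 0.13 (edgeR adjusted p = 0.00959). Ntng2 in the SmoM2 comparison had 141, 131 and 124 CPM in the SmoM2 libraries, against 119, 87.2 and 93.3 CPM in the wild-type libraries, higher than every wild-type library, but it did not pass (log2 fold change 0.41 ± 0.13, edgeR adjusted p = 0.0558). It did pass there by DESeq2, by limma-voom, with no filter on low counts, with the replicate block, and without wild-type replicate 1. In the annotation, 13.98% of the Ntng2 exon bases overlap a gene on the same strand, 6530402F18Rik, and wild-type counts differed between the tables, with 6699 wild-type counts in the ShhN IUE table and 5923 in the SmoM2 table.

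Ntng1 lies at chromosome 3, 109780040 to 110144011, minus strand and had 4.83, 4.75 and 4.57 CPM in the ShhN IUE libraries, against 8.66, 12.1 and 6.15 CPM in the wild-type libraries, with a log2 fold change of -0.93 ± 0.27 (edgeR adjusted p = 0.0305). Groups did not overlap, but the call was lost without any 1 library except wild-type replicate 3, and with the replicate block, with edgeR adjusted p-values up to 0.0967. Ntng1 in the SmoM2 comparison had 4.44, 4.83 and 5.48 CPM in the SmoM2 libraries, against 7.64, 8.28 and 6.07 CPM in the wild-type libraries and did not pass (log2 fold change -0.58 ± 0.19, edgeR adjusted p = 0.0695). Counted in FPKM, where Ntng2 dominates, the netrin-G sum was 24.6, 24.7 and 25.7 in the ShhN IUE libraries, against 18.9, 14.97 and 15.01 in the wild-type libraries.

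Draxin, a secreted repellent of commissural and cortical axons that binds Dcc, was the most strongly raised member in both interventions (chromosome 4, 148098437 to 148130698, minus strand). It had 354, 321 and 409 CPM in the ShhN IUE libraries, against 182, 161 and 127 CPM in the wild-type libraries, and a log2 fold change of 1.21 ± 0.15 (edgeR adjusted p = 0.00147). Draxin in the SmoM2 comparison had 307, 275 and 287 CPM in the SmoM2 libraries, against 181, 161 and 126 CPM in the wild-type libraries, and a log2 fold change of 0.89 ± 0.13 (edgeR adjusted p = 0.00318). Every library of either intervention lay above every wild-type library. For Draxin, the difference between SmoM2 and ShhN IUE was -0.33 ± 0.13 and did not pass (edgeR adjusted p = 0.103).

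The Unc5 receptors, which mediate repulsion by netrin, split by member and by intervention. Unc5d, known from multipolar and upper-layer neurons of the developing cortex, lies at chromosome 8, 28646717 to 29219338, minus strand. It had 22.2, 23.6 and 24.7 CPM in the SmoM2 libraries, against 66.1, 78.8 and 92.9 CPM in the wild-type libraries. The SmoM2 libraries were tightly grouped and far under wild type, with a log2 fold change of -1.75 ± 0.14 and an edgeR adjusted p of 0.000280, the smallest among the members in that comparison. In the other table it had 46.2, 61.8 and 27.4 CPM in the ShhN IUE libraries, against 66.4, 78.8 and 93.3 CPM in the wild-type libraries. Those groups did not overlap, but the ShhN IUE libraries were widely spread, and the gene just missed the threshold (log2 fold change -0.82 ± 0.27, edgeR adjusted p = 0.05003). It passed there by DESeq2 at 0.00689, by limma-voom at 0.0359, with a filter at 1 CPM, over the genes with agreeing wild-type counts and without ShhN IUE replicate 2.

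Between the interventions Unc5d was lower in SmoM2 than in ShhN IUE, with a log2 fold change of -0.96 ± 0.24 (edgeR adjusted p = 0.0239). That call was lost without ShhN IUE replicate 1 or 2 or any 1 SmoM2 library, with edgeR adjusted p-values up to 0.0818. The fall against wild type in SmoM2 held in every alternative that was run.

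Unc5b, an Unc5 receptor known from endothelial tip cells as well as from neurons, lies at chromosome 10, 60762610 to 60831581, minus strand. It had 36.6, 27.8 and 44.1 CPM in the ShhN IUE libraries, against 22.2, 19.9 and 12.2 CPM in the wild-type libraries, and a log2 fold change of 0.99 ± 0.25 (edgeR adjusted p = 0.0178). The groups did not overlap, but the call was lost without ShhN IUE replicate 1, at 0.0525. Unc5b in the SmoM2 comparison had 18.1, 16.8 and 15.9 CPM in the SmoM2 libraries, against 22.1, 19.97 and 12.2 CPM in the wild-type libraries, with overlap, and a log2 fold change of -0.10 ± 0.21 (edgeR adjusted p = 0.781). For Unc5b, the difference between SmoM2 and ShhN IUE was -1.11 ± 0.21 (edgeR adjusted p = 0.00789), and it held in each alternative run. Of 14 endothelial and mural marker genes, 4 rose in ShhN IUE and none in SmoM2, with sums of 374 to 688 CPM in ShhN IUE and 309 to 515 CPM in wild type, and of 416 to 462 CPM in SmoM2 and 308 to 518 CPM in wild type in the other table. The part of vessel cells in the Unc5b difference was not tested.

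Unc5a and Unc5c passed in neither comparison with wild type. For Unc5a, the difference between SmoM2 and ShhN IUE passed at -0.49 ± 0.12 (edgeR adjusted p = 0.0194), where the log2 fold change over wild type was -0.10 ± 0.12 in SmoM2 and 0.31 ± 0.13 in ShhN IUE. It was lost without ShhN IUE replicate 1 or 2 or SmoM2 replicate 2 or 3. Unc5c had log2 fold changes of -0.39 ± 0.18 in SmoM2 and -0.18 ± 0.20 in ShhN IUE.

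Dcc, the receptor of netrin and Draxin, had 42.4, 40.5 and 38.9 CPM in the ShhN IUE libraries, against 37.9, 36.7 and 24.7 CPM in the wild-type libraries, and a log2 fold change of 0.29 ± 0.17 that did not pass (edgeR adjusted p = 0.208). In SmoM2 the log2 fold change of Dcc was 0.09 ± 0.16. Neo1 had log2 fold changes of -0.10 ± 0.10 in ShhN IUE and -0.01 ± 0.10 in SmoM2 and passed in neither, so of these 3 genes only Draxin passed.

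**Figure D4:**
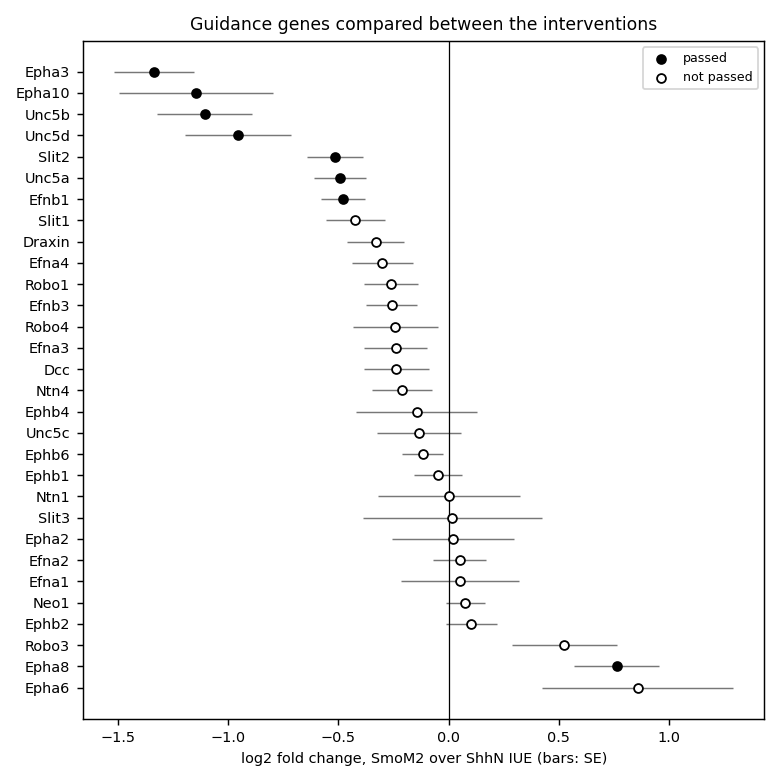
Log2 fold change of SmoM2 over ShhN IUE (x axis) for the guidance genes whose wild-type counts agree between the tables, ordered by size, where bars are standard errors and filled points passed at an adjusted p under 0.05. Epha3 at -1.34 and Unc5b at -1.11 lie left, and Epha8 at 0.76 passed on the right. Ntn5, at 0.75 ± 1.25, was tested and is not drawn.

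**Figure D5:**
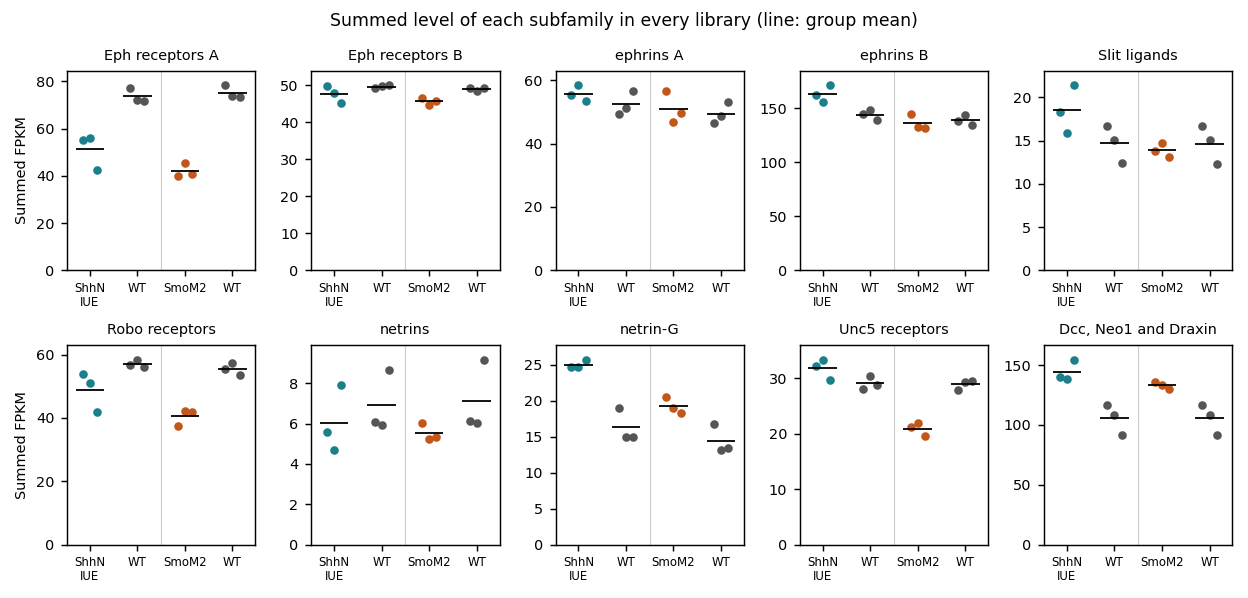
Summed FPKM (y axis, from 0) of each guidance family in every library, with ShhN IUE (teal) and SmoM2 (orange) each left of the wild type of its table, where points are libraries and lines are means. The EphA sums are lower in both interventions, as are the Robo sums, the Unc5 sums are lower in SmoM2, and the sum of Dcc, Neo1 and Draxin is higher in both.

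Between the interventions 31 members could be tested, of which 1 was higher and 7 were lower in SmoM2 than in ShhN IUE and 23 did not pass. That is 25.8% of the members tested, beside 16.5% of all 12349 genes (8.45% higher and 8.07% lower). The median log2 fold change of SmoM2 over ShhN IUE was -0.21 for the members and -0.0057 for all genes. The members that could not be tested this way, because their wild-type counts differed between tables, were Efna5, Efnb2, Epha1, Epha4, Epha5, Epha7, Ephb3, Ntng1, Ntng2 and Robo2. Of the 7 members that fell in ShhN IUE, 5 are among these, namely Epha4, Epha5, Epha7, Efna5 and Ntng1.

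Partners and effectors of these receptors were followed in a list of 35 genes. In ShhN IUE 3 of them rose and 6 fell, in SmoM2 4 rose and 3 fell, and in SmoM2 against ShhN IUE 3 of 23 were higher and 1 was lower. The share called was 25.7% in ShhN IUE, under the 33.3% of all genes, and 20% in SmoM2, near the 18.9% of all genes, and the share of 17.4% between the interventions was near 16.5%. Ngef, which encodes ephexin, a signalling partner of EphA receptors, averaged 19.98 ± 1.88 CPM in ShhN IUE and 81.2 ± 11.2 CPM in wild type (SD, n = 3 each). Its log2 fold change was -2.02 ± 0.15 (edgeR adjusted p = 0.000420). In the SmoM2 table Ngef averaged 30.6 ± 2.18 CPM in SmoM2 and 81.05 ± 11.3 CPM in wild type (SD, n = 3 each; log2 fold change -1.41 ± 0.13, edgeR adjusted p = 0.000475). Ngef fell in both comparisons, whereas the list as a whole had a median log2 fold change of -0.149 in ShhN IUE and -0.0561 in SmoM2.

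Myo10, a motor that carries Dcc along filopodia, rose by 1.20 ± 0.16 in ShhN IUE (edgeR adjusted p = 0.00181) and by 0.75 ± 0.10 in SmoM2 (edgeR adjusted p = 0.00241), both on the log2 scale. Abl1, a kinase downstream of Robo, and Vasp, an actin regulator, also rose in both. Pitpna, a lipid transfer protein that binds Dcc, and Sdc2, a heparan sulfate proteoglycan, fell in both. Between the interventions, Adam10, a protease that cuts ephrins, was higher in SmoM2 than in ShhN IUE by 0.53 ± 0.10 on the log2 scale (edgeR adjusted p = 0.00561). Lrrc4c, the ligand of netrin-G1, fell in ShhN IUE and was higher in SmoM2 than in ShhN IUE by 0.92 ± 0.22 (edgeR adjusted p = 0.0184).

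Markers of other cell types moved alongside the guidance genes. Those of radial glia rose in 10 of 15 cases in ShhN IUE and 8 in SmoM2, and of 18 cell cycle genes 17 rose in each, with none lower in either list. Olfactory bulb interneuron genes rose in 9 of 14 cases in ShhN IUE and 12 in SmoM2, and oligodendrocyte genes in 8 of 10 and 9. Of 12 medial ganglionic eminence interneuron genes, 3 were higher and 6 lower in ShhN IUE, and 2 higher and 6 lower in SmoM2. Astrocyte genes gave 3 higher and 1 lower of 9 in ShhN IUE and 4 higher in SmoM2, Cajal-Retzius genes 2 lower of 7 in ShhN IUE and 5 lower in SmoM2, and microglial genes 2 higher of 10 in each. No meningeal gene of 10 passed, with sums of 28.2 to 813 CPM in ShhN IUE and 25.4 to 524 CPM in wild type, and of the blood genes none passed in ShhN IUE and 1 was higher in SmoM2. No list gene was at 0 in every library. The part of these cell types in the guidance values was not tested.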

How the data were processed

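RNA of postnatal day 0 mouse cortex was sequenced in 9 libraries, grouped by their titles. Per the submitters' processing notes, which give no versions, the tools were HISAT2, StringTie and edgeR, and GRCm38.p4 and mm10 are the builds listed. Each table, per the file headers, holds the authors' deposited counts and FPKM per gene and library, with the authors' log2 fold changes, p-values and q-values for that intervention. No source used here says how reads shared between genes or strands were counted. At q under 0.05 the authors' deposited tables list 14 guidance genes for ShhN IUE and 13 for SmoM2, of which 12 and 12 were also called here. Listed there but not called here were Unc5d (authors' q = 0.0129) and Slit3 (0.0454) in ShhN IUE, and Ntn1 (0.0259) in SmoM2. Called here but not listed there were Epha8 (authors' q = 0.0557) and Slit2 (0.0762), both in SmoM2.

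Counts were tested in R 4.3.3 with edgeR 4.0.16 (TMM scaling, filterByExpr, quasi-likelihood F test, Benjamini-Hochberg over all genes tested, threshold 0.05), each intervention against the wild type of its own table. CPM values used the TMM-scaled library sizes. For many genes the wild-type counts differ between the tables, although the libraries are the same. SmoM2 was therefore compared with ShhN IUE in 1 fit of all 9 libraries over the genes whose summed wild-type counts agreed (log2 ratio within 0.1 after adding 5 counts; 16195 of 22268 genes). Values per library were given for members that passed against wild type at 5 CPM or more in at least 1 group and a log2 fold change of at least 0.5 in size, and, chosen after their values were seen, for Efnb1, Slit2, Ntn1 and Dcc. limma 3.58.1 (voom) and DESeq2 1.42.0, other scalings and filters, a replicate block and leaving out each library served as alternatives. Gene coordinates came from GENCODE M21 (GRCm38) and promoters from RefSeq. The members, the 16 gene lists and the tests were chosen with earlier results of these data known.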

Additional observations from a re-analysis of the deposited data

Results flagged for a closer look

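For 8 guidance genes the effects of the interventions differed in the direct test of SmoM2 against ShhN IUE (edgeR, adjusted p under 0.05 over all genes tested). Lower in SmoM2 than in ShhN IUE were Epha3 by a log2 fold change of -1.34, Epha10 by -1.145, Unc5b by -1.11, Unc5d by -0.96, Slit2 by -0.51, Unc5a by -0.49 and Efnb1 by -0.48. Higher in SmoM2 than in ShhN IUE was Epha8, by 0.76. Against wild type, Epha10, Unc5d and Epha3 had the lowest log2 fold changes of these genes in SmoM2, at -1.99, -1.75 and -1.50, and Unc5b had the highest in ShhN IUE, at 0.99. Epha3 and Unc5b kept their call in each alternative fit of this comparison, and the other 6 lost it in at least 1.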

How the results depend on the processing

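Of 504 alternative values of called guidance genes, 454 kept the call and 50 lost it, 32 of 1149 values of uncalled ones gained it, and 0 were reversed. By DESeq2, 17 guidance genes passed in ShhN IUE (5 higher, 12 lower, 5808 over all genes). By edgeR 12 passed (5 higher, 7 lower, 5380 over all genes). The count of members thus grew by a larger factor than that of all genes, so the closeness of their shares in ShhN IUE belongs to the edgeR fit. Over genes with agreeing wild-type counts only, 7 members passed in ShhN IUE, 3 of them lower, a fit that by construction left out members. Leaving out each library in turn gave 10 to 13 called members in ShhN IUE (4 to 6 higher, 6 to 8 lower, 3251 to 4624 over all genes), 9 to 14 in SmoM2 (1 to 3 higher, 8 to 12 lower, 1334 to 3010 over all genes), and 3 to 9 in SmoM2 against ShhN IUE (0 to 1 higher, 3 to 8 lower, 834 to 2336 over all genes). The lowest SmoM2 count came without SmoM2 replicate 3, and the comparison of interventions fell to 3 or 4 members without ShhN IUE replicate 1 or without any 1 SmoM2 library; these fits hold fewer samples. Whether the replicate numbers pair the samples was not settled. Same-numbered libraries deviated with correlations of -0.32 to 0.264, and deviations from the mean of 3 libraries cannot decide it. With the replicate block, 13 members passed in ShhN IUE (5 higher, 8 lower, 3962 over all genes), 15 in SmoM2 (3 higher, 12 lower, 2468) and 7 between the interventions (1 higher, 6 lower, 1499). The block ended the call of Ntng1 in ShhN IUE, at an edgeR adjusted p of 0.0566, and of Epha10 between the interventions, at 0.0802, and it gained Ntn1 (0.0128) and Robo1 (0.0458) in ShhN IUE and Ntng2 (0.0387) in SmoM2. Depth limits Epha1, Ntn5 and, at a few CPM, Slit3, Ntng1 and Epha10.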

Other observations

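Epha1 and Ntn5, which could not be tested against wild type, had 2 to 12 counts and 0 to 23 counts per library. The guidance genes that fell had a longer median gene span than the others, but their range lay within that of members that did not pass. In ShhN IUE the median was 277.1 kb for the 7 lower members (27.4 to 432.6 kb) and 32.3 kb for the 5 higher. It was 106.5 kb for the 27 that did not pass (6.1 to 1092 kb). In SmoM2 the median was 322.6 kb for the 12 lower members (27.4 to 587.3 kb) and 18.45 kb for the 2 higher. It was 56.6 kb for the 25 that did not pass (6.1 to 1092 kb). Spans over all genes were not compared. These are descriptions of the called members and were not tested. Several members are neighbours: Robo4 and Robo3 lie 1.6 kb apart on chromosome 9, Efna3 and Efna4 10.4 kb apart on chromosome 3, and Ephb2 and Epha8 93.4 kb apart on chromosome 4, where Epha8 fell in both interventions and Ephb2 passed in neither.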
